A study of Drosophila melanogaster with 12 samples.

Results

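Intergenic poly(A) sites were described that lie beyond the annotated 3' ends of genes on chromosome arm 2L of adult Drosophila melanogaster. Members were chosen by position: cleavage positions within 24 nt of each other on 1 strand were joined into a site, a site needed at least 10 reads over the pooled libraries, and it had to lie outside annotated genes on both strands. Each site was named after the nearest gene upstream on its own strand and classed by the distance past that gene's end. Of 8255 such sites on 2L (46092 in the whole genome), 861 were members. There were 438 sites at 50 to 1000 nt (the near class), 227 beyond that and up to 10000 nt (the middle class) and 196 farther away (the far class). The 998 sites at 1 to 49 nt past an end were not members and serve for comparison.

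The reads came from 3'READS and 3'READS+, which capture RNA fragments that carry a poly(A) tail, so that a read gives the position of a 3' end. The 12 libraries were made from dissected adult heads and bodies. There were 2 mutant head and 2 mutant body libraries from RpII215 flies with the RNA Pol II 215 C4 allele, and 4 wild-type head and 4 wild-type body libraries from w1118 flies. The RpII215 product is the largest RNA polymerase II subunit, and C4 is known as an allele that slows elongation. The 2 genotypes are separate strains, so the C4 allele and any other difference between the strains cannot be told apart. Age and sex were not given, and neither was whether replicates were separate groups of animals. P-values therefore measure no more than the spread among these libraries, which may be technical.

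The 3' end of a messenger RNA is set where the nascent transcript is cleaved and a poly(A) tail is added. Many genes hold several such sites, and in the nervous system of Drosophila many transcripts end at distal sites, which gives them longer 3'UTRs. A slower polymerase gives more time for a promoter-proximal site to be used before a distal one has been transcribed. Sites past the last annotated end can mark a longer 3'UTR of the gene upstream, or the end of another transcript for which the annotation has no gene.

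The libraries held between 2219693 and 9062730 reads. They fall into an early and a later range of sample accession numbers, treated here as a technical batch. The later range holds all mutant libraries with wild-type replicates 3 and 4, and the early range holds wild-type replicates 1 and 2 of both tissues. Photoreceptor, accessory gland and germline, and gut markers on 2L followed the labelled tissues, while neuron and muscle markers overlapped between wild-type heads and bodies. The summed level of 5 photoreceptor genes, in CPM (counts scaled to library size, with TMM factors, as throughout), was 5042 to 6213 CPM in mutant heads and 29.8 to 104 CPM in mutant bodies, and 5037 to 18750 CPM in wild-type heads against 22 to 1030 CPM in wild-type bodies. The summed level of 5 accessory gland and germline genes was 1099 to 1191 CPM in mutant bodies and 876 to 1231 CPM in wild-type bodies, and at most 27.3 CPM in any head. The 3 gut genes measured had 255 to 262 CPM in mutant bodies and 266 to 708 CPM in wild-type bodies, and at most 41.1 CPM in any head. The 6 neuron genes had 268 to 282 CPM in mutant heads and 19.0 to 31.9 CPM in mutant bodies, and 305 to 5942 CPM in wild-type heads against 24.6 to 525 CPM in wild-type bodies, so both mutant heads lay below every wild-type head. The 2 muscle genes had 13.5 to 18.9 CPM in mutant heads and 11.6 to 17.3 CPM in mutant bodies, and 21.7 to 264 CPM in wild-type heads against 72.9 to 1062 CPM in wild-type bodies.

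Members were numerous but weakly used. All 861 together held 56555 reads, 0.551% of the reads on 2L, while the 998 sites at 1 to 49 nt held 25.7%. The near class held 36929 reads, the middle class 10045 and the far class 9581. The median site had 25 pooled reads in the near, 18 in the middle and 16.5 in the far class. Within the near class, the 143 sites at 50 to 99 nt took 64.6% of the reads, and the 53 sites at 500 to 1000 nt took 4.66%. Use therefore fell off quickly with distance from the annotated end. At the thresholds, 24 sites at 50 to 54 nt had a median of 46 reads and 17 sites at 45 to 49 nt a median of 112. There were 10 sites in the last 100 nt of the near class and 8 in the first 100 nt of the middle class, and 19 in the last 1000 nt of the middle class and 13 in the first 1000 nt of the far class. The 77 sites with 10 reads and the 67 with 11 reads lay at the read threshold.

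The gene upstream was a label of position and not a claim that the transcript began there. A gene on the opposite strand lay between the upstream gene and the site at 16 of 438 sites in the near class, at 126 of 227 in the middle class and at 159 of 196 in the far class. The start of a gene on the opposite strand lay within 500 nt behind the site at 30 near, 71 middle and 34 far sites. Whether these sites end antisense transcripts from such promoters was not tested. The end of a convergent gene lay within 500 nt ahead at 73 near, 29 middle and 15 far sites. The next gene on the same strand started within 500 nt at 140 near, 42 middle and 22 far sites. The gene upstream was coding at 326 near, 155 middle and 125 far sites.

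The shape of the sites differed with distance. Cleavage at a poly(A) site usually spreads over several neighbouring positions. Among sites with 50 to 500 pooled reads, members had a median of 7 positions in the near class, 3 in the middle class and 4 in the far class, against 8 at 2L sites within 24 nt of annotated transcript ends. The most used position took a median of 58.9%, 86.4% and 81.1% of the reads of a site in these classes, against 62.4% at annotated ends. By these medians the near class was close to annotated ends, and the middle and far classes were narrower. Of the sites with at least 50 reads, 38 of 122 in the near class sat on 5 or fewer positions. It was 24 of 34 in the middle class, 15 of 22 in the far class and 236 of 2149 at annotated ends. These sets were not matched in depth. At most 500 reads were held by 109 of the 122 near, 31 of the 34 middle and 21 of the 22 far members, but by 923 of the 2149 annotated ends. Their shares of narrow sites can therefore not be compared directly.

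Narrow sites also went with the accession range. Of the members with at least 50 reads, 77 sat on 5 or fewer positions, and 28 of these had no read in any early library. Of the 101 members on more than 5 positions, 1 had none. Early libraries gave 6.51% of the reads of the narrow members and 28.0% of those of the wider members, against 23.6% of the reads at all 2L sites. By class, 6 of 122 near members with at least 50 reads (4.92%), 16 of 34 middle members (47.1%) and 7 of 22 far members (31.8%) lacked early reads. At annotated ends, a set not matched in depth, this held for 32 of 2149 sites (1.49%). The labels name 3'READS and 3'READS+ without saying which library used which, so the protocol and the accession range cannot be told apart.

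**Figure D1:**
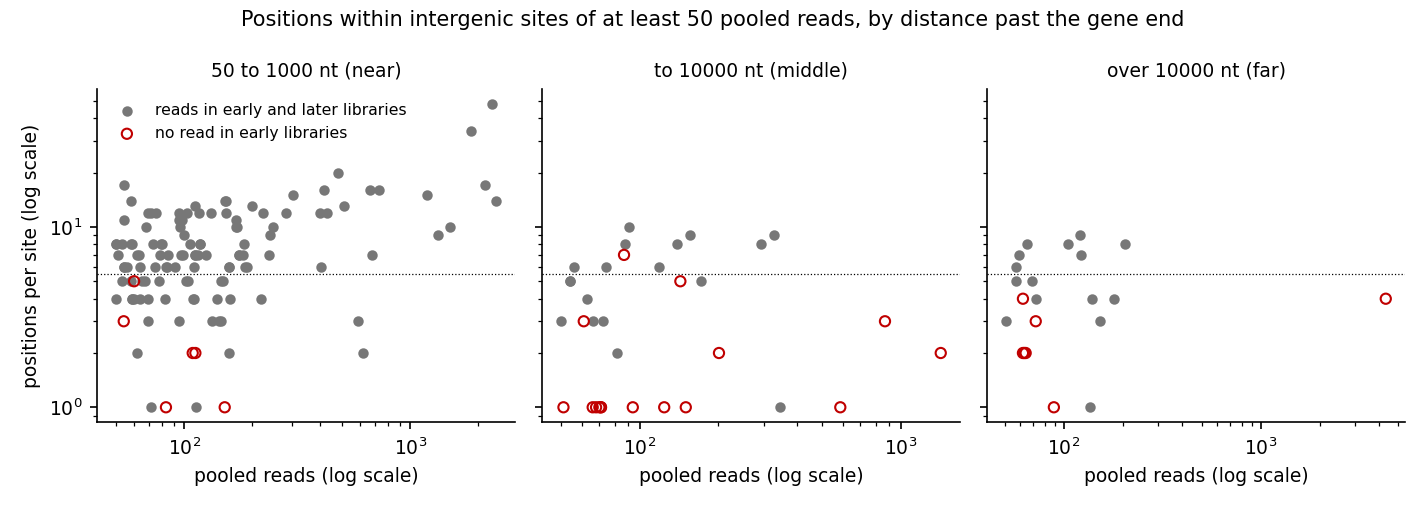
Number of positions joined into each intergenic site (vertical axis, log scale) against its pooled reads (horizontal axis, log scale) for the 178 members with at least 50 pooled reads, 1 panel per distance class. Open red circles are sites with no read in the 4 early libraries, and the dotted line separates 5 or fewer positions from more; 28 of the 29 red circles lie below it.

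The most used site of all was such a narrow site. It lay at 2L 12874486 on the + strand, 32591 nt past lncRNA:CR44971, covered 4 positions and held 4311 reads. It had 681 and 654 reads in mutant heads, 13 and 635 in mutant bodies, 0, 0, 509 and 336 in wild-type heads and 0, 0, 891 and 592 in wild-type bodies. All later libraries but mutant body replicate 1 thus had many reads, and no early library had any. The most used sites of the middle class followed the same split. The site 9766 nt past lncRNA:CR45303 (1421 reads on 2 positions) had 143 and 143 reads in mutant heads, 553 and 143 in mutant bodies, 0, 0, 95 and 77 in wild-type heads and 0, 0, 120 and 147 in wild-type bodies. The site 9201 nt past brwl (869 reads, 3 positions) and the site 5324 nt past GlcAT-S, a glucuronyltransferase gene (586 reads, 1 position), had no early read either. The site 6961 nt past lncRNA:CR44413 (345 reads, 1 position) had 1.

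The site 1725 nt past Spn28B, a serpin gene, went the other way. It held 326 reads on 9 positions, of which 313 were early. It had 0 CPM in both mutant heads, 0.171 and 0 CPM in mutant bodies, 0.536, 0.407, 0 and 0 CPM in wild-type heads and 42.2, 19.4, 0.699 and 0.862 CPM in wild-type bodies. The site was thus high in the early body libraries alone. CG31633, whose site lay 65 nt past the end, was also tied to the range: it had 5.90 and 6.96 CPM in mutant heads, 8.35 and 2.59 in mutant bodies, 162, 208, 3.91 and 3.49 in wild-type heads and 82.4, 92.8, 3.49 and 4.31 in wild-type bodies. All 4 early libraries lay far above all 8 later ones, in heads and bodies alike.

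Several of the most used near sites were the main end of their gene. At CG9550 the site 83 nt past the end took 100% of the gene's reads in every library. At hgo, which encodes homogentisate 1,2-dioxygenase, the site 50 nt past the end took 98.9% and 99.6% of the gene's reads in mutant heads, 98.0% and 99.1% in mutant bodies, 90.9% to 98.7% in wild-type heads and 92.3% to 98.7% in wild-type bodies. At CG31633 the share was 82.1% or more in every library. In these genes most reads ended past the annotated end in heads and bodies alike.

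Heads were asked first for a larger share of reads past gene ends. They did not have one in the near class. At the comparison sites closer to the ends, which were not members, every head lay above every body of its genotype. Those comparison sites held 28.56% and 26.97% of 2L reads in mutant heads and 21.72% and 22.41% in mutant bodies. They held 26.79% to 32.95% in wild-type heads and 21.12% to 24.98% in wild-type bodies. In the near class the share of 2L reads was 0.366 ± 0.0182% in mutant heads and 0.373 ± 0.0465% in mutant bodies (SD, n = 2 each), and 0.364 ± 0.0480% in wild-type heads and 0.376 ± 0.0811% in wild-type bodies (SD, n = 4 each). Heads and bodies overlapped in both genotypes. Among wild-type libraries the early ones had 0.359% in heads and 0.435% in bodies, and the later ones 0.370% in heads and 0.316% in bodies, so the order turned round between ranges.

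Farther from the ends, heads had the smaller mean share. In the middle class the share was 0.0870% and 0.0842% in mutant heads and 0.230% and 0.127% in mutant bodies. It was 0.0226%, 0.0360%, 0.0722% and 0.0787% in wild-type heads, against 0.0909%, 0.126%, 0.0917% and 0.0964% in wild-type bodies. The groups did not overlap in either genotype, and the means in wild-type heads and bodies were 0.0293% and 0.108% in the early range and 0.0755% and 0.0940% in the later range. Sites on more than 5 positions gave 0.0150% in wild-type heads and 0.0672% in wild-type bodies of the early range, and 0.0108% in heads and 0.0101% in bodies of the later range. In the far class the share was 0.0998 ± 0.0125% in mutant heads and 0.141 ± 0.0243% in mutant bodies, and 0.0497 ± 0.0339% in wild-type heads and 0.0835 ± 0.0477% in wild-type bodies. Without the most used site it was 0.0351%, 0.110%, 0.0268% and 0.0470% in these 4 groups. With that site, the wild-type groups overlapped in the far class, at 0.0126% to 0.0802% in heads and 0.0400% to 0.135% in bodies. Both later wild-type heads lay above both early wild-type bodies. In bulk tissue, fewer cells of a type and less RNA per cell cannot be told apart.

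**Figure D2:**
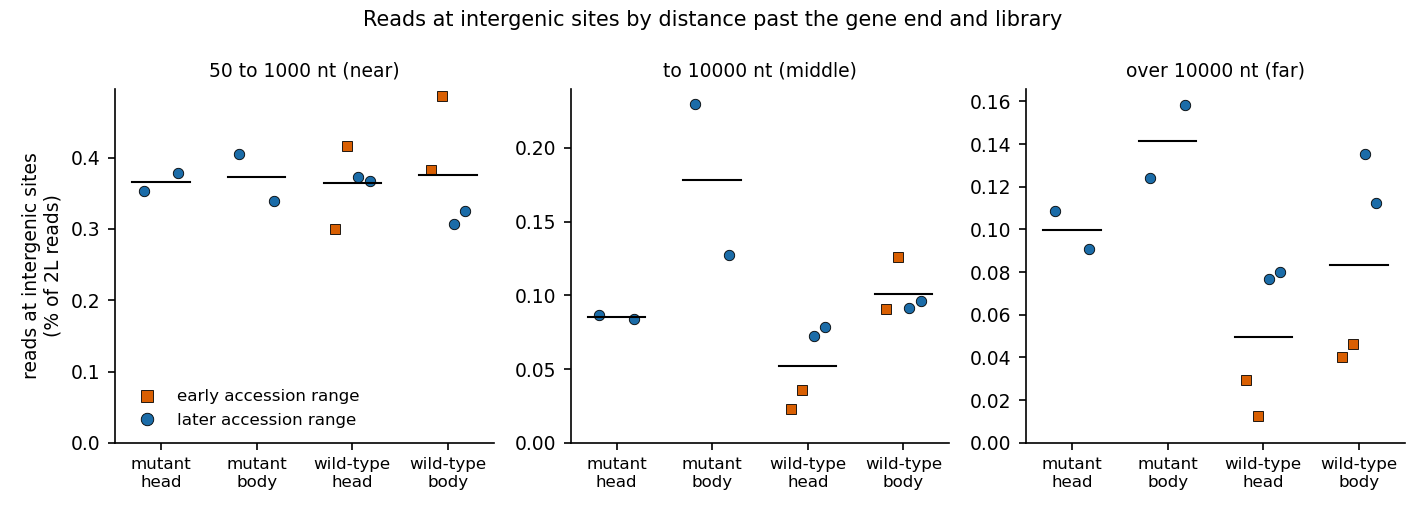
Reads at intergenic sites as a percentage of all 2L reads (vertical axes, each starting at 0) in each library, by group and distance class; horizontal bars are group means and colours mark the accession range. In the near class heads and bodies overlap, in the middle class all head libraries lie below the body libraries of their genotype, and in the far class the early libraries are lowest.

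Site reads were then compared between wild-type heads and bodies with edgeR's quasi-likelihood test over all genomic sites, with the accession range as a term. After the filter on low counts 49 of the 861 members were tested. A member that passed because it was high in 1 tissue had to differ, so the counts of calls describe those tested. Of the 49, 9 were higher and 13 lower in heads at a Benjamini-Hochberg adjusted p under 0.05, which is 44.9% called, against 41.8% of all 14129 sites tested (16.5% higher and 25.3% lower). The share was close to this background. The median log2 change was -0.34 over the members and 0.03 over all sites. Each range alone gave 15 calls (0 higher, 15 lower; early libraries) and 71 calls (22 higher, 49 lower; later libraries). The number of calls was 35 without wild-type head replicate 1, 37 without replicate 2 and 34 without replicate 4. The share over all sites is not given for these settings, so these counts describe the members alone.

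The sites higher in heads included neuronal and photoreceptor genes. nAChRalpha5 encodes a subunit of the nicotinic acetylcholine receptor, and its site at 2L 14094473 lies 72 nt past the end on the + strand. It had 28.4, 14.7, 38.1 and 45.5 CPM in wild-type heads and 4.29, 3.52, 1.12 and 1.48 CPM in wild-type bodies (log2 change 3.60, SE 0.67, edgeR adjusted p = 0.00221). All heads lay above all bodies. The change was 2.17 in early libraries alone (adjusted p = 0.0884) and 4.79 in later libraries alone (adjusted p = 1.1e-04). CarT encodes a transporter of carcinine in photoreceptors, and its site lies 174 nt past the end. It had 2.95, 2.03, 1.72 and 2.45 CPM in wild-type heads and 0.317, 0, 0 and 0 CPM in wild-type bodies (4.39, SE 0.71, edgeR adjusted p = 9.9e-04). Reads of the whole gene averaged 25.2 CPM in wild-type heads and 1.22 CPM in wild-type bodies, so the gene as a whole was higher in heads too.

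CG9497, whose site 63 nt past the end was the most used of its class with 2386 reads, was called but its groups overlapped. It had 54.9, 2.44, 58.9 and 42.0 CPM in wild-type heads and 5.71, 0.440, 3.63 and 2.22 CPM in wild-type bodies (log2 change 3.50, SE 0.92, edgeR adjusted p = 0.0134). Wild-type head replicate 2 lay among the bodies, and the call was lost without wild-type head replicate 1 (adjusted p = 0.0867) or body replicate 3 or 4 (0.0584 and 0.0636). The site took 2.69% to 32.1% of the gene's reads in wild-type heads and 2.94% to 46.4% in wild-type bodies, so the share of the gene's transcripts that ended there overlapped.

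The sites lower in heads with the most reads had little or no reads in heads. CG9550 had 0.536, 1.63, 0.805 and 0.387 CPM in wild-type heads and 36.7, 31.2, 52.3 and 56.6 CPM in wild-type bodies (log2 change -5.91, SE 0.51, edgeR adjusted p = 9.1e-05). CG7631, 53 nt past the end, had 1.07, 0, 0 and 0 CPM in wild-type heads and 77.6, 42.7, 7.55 and 7.88 CPM in wild-type bodies (-7.18, SE 0.72, edgeR adjusted p = 1.2e-04). Its level in bodies differed widely between the ranges. CG15283, 137 nt past the end, had 0.268, 0, 0.115 and 0.129 CPM in wild-type heads and 21.7, 9.24, 8.24 and 9.48 CPM in wild-type bodies (-6.23, SE 0.54, edgeR adjusted p = 9.1e-05). In each case heads and bodies were far apart in both ranges.

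The other sites named as lower in heads were those of ttm3, a relative of the mitochondrial import factor Tim50, at 67 nt (log2 change -5.27), CR43734 at 66 nt (-6.45) and CG15631 at 99 nt (-6.33). In the middle class the site 2868 nt past lncRNA:CR45359 had 0 CPM in all 4 wild-type heads and 2.06, 3.96, 2.10 and 2.83 CPM in wild-type bodies. It was at least 20.7-fold lower in heads, taking 3 counts over the whole group as the floor (edgeR adjusted p = 0.00155). For these 4 sites the edgeR adjusted p lay between 1.4e-04 and 0.00155. Of the 22 called members, 16 had groups that did not overlap. The same share over all called sites is not given, so this count describes the members alone.

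**Figure D3:**
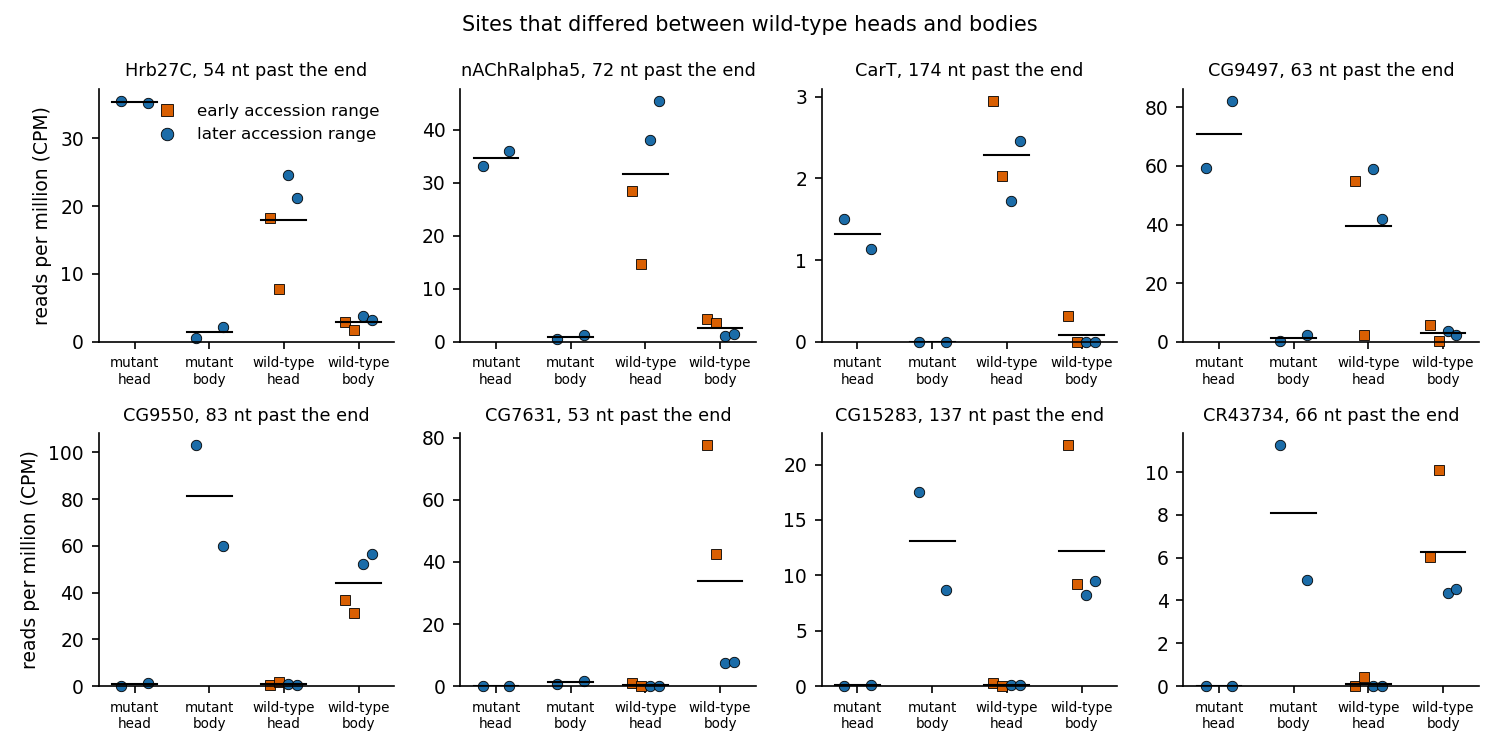
CPM (vertical axes, linear, starting at 0) at 8 intergenic sites in each library, by group, with group means as bars and colours for the accession range. The upper row shows sites higher in wild-type heads and the lower row sites lower in wild-type heads; mutant heads and bodies were ordered the same way at each of the 8.

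The mutant libraries repeated these tissue differences in samples not used for the calls. Of the 9 members higher in wild-type heads, 8 were tested in mutant heads against mutant bodies, and 8 of 8 were higher there, 7 of them past the threshold. Of the 13 lower in wild-type heads, 13 of 13 were lower in mutant heads and all 13 passed. The recurrence over all called sites is not given, so these counts do not show a trait particular to members. For nAChRalpha5 mutant heads had 33.2 and 36.1 CPM and mutant bodies 0.511 and 1.35 CPM (log2 change 4.82, edgeR adjusted p = 2.6e-04). For CG9550 mutant heads had 0.116 and 1.48 CPM and mutant bodies 103 and 59.8 CPM (-6.95, edgeR adjusted p = 3.0e-04). Over all members the mutant tissue comparison tested 185 and called 24 higher and 86 lower in heads (59.5%), against 49.2% of all 21301 sites tested (16.8% higher and 32.4% lower); the median log2 change was -1.96 over members and -0.21 over all sites. Here too a member that passed the filter because it was high in 1 tissue had to differ.

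A change in site reads can follow the gene as a whole, so site use was tested next. Site use sets the reads of a site against the other reads of its gene, for sites up to 10000 nt past the end, at a mean of at least 1 read per site and 10 per gene. Averages of a whole gene in CPM, here and above, count all its sites, those past its end included. Between wild-type heads and bodies 328 members were tested, of which 37 were used more and 14 less in heads (15.5% called), against 16.9% of all 3819 sites tested. The share called was near this background, but its direction differed: 11.3% of members were higher against 7.15% of all sites, and 4.27% lower against 9.77%. The median log2 change was 0.77 over members and -0.05 over all sites. The sites at 1 to 49 nt leaned the same way, with 92 higher and 12 lower of 584 and a median of 0.69, so the lean to heads was shared with ordinary gene ends. In all, 12 of the 51 calls had groups that did not overlap, 29 had fewer than 50 pooled reads and 15 had no early read. These counts too are given for members alone.

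This count rested on the later libraries. Early libraries alone gave 0 calls with edgeR, although 15 members were called in site reads there, and later libraries alone gave 75 (55 higher, 20 lower). Without the accession range as a term it was 10. Leaving out wild-type head replicate 3 gave 30 calls and head replicate 4 gave 26, and leaving out body replicate 3 gave 19 and body replicate 4 gave 17. With members that lack early reads left out it was 36 (25 higher, 11 lower).

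The level of the site and of its gene was set beside each higher use in heads. In the near class 20 of 248 tested members were used more in heads and 4 less. At 19 of these 20 the site itself had more CPM in heads, and at 4 of 20 the gene was at least 4-fold lower in heads. In the middle class 17 of 80 were used more and 10 less (33.8% called). Of these 27 calls, 19 had fewer than 50 pooled reads and 11 had no early read. There, 13 of the 17 belonged to genes at least 4-fold lower in heads, and 11 of the 17 sites had more CPM in heads.

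**Figure D4:**
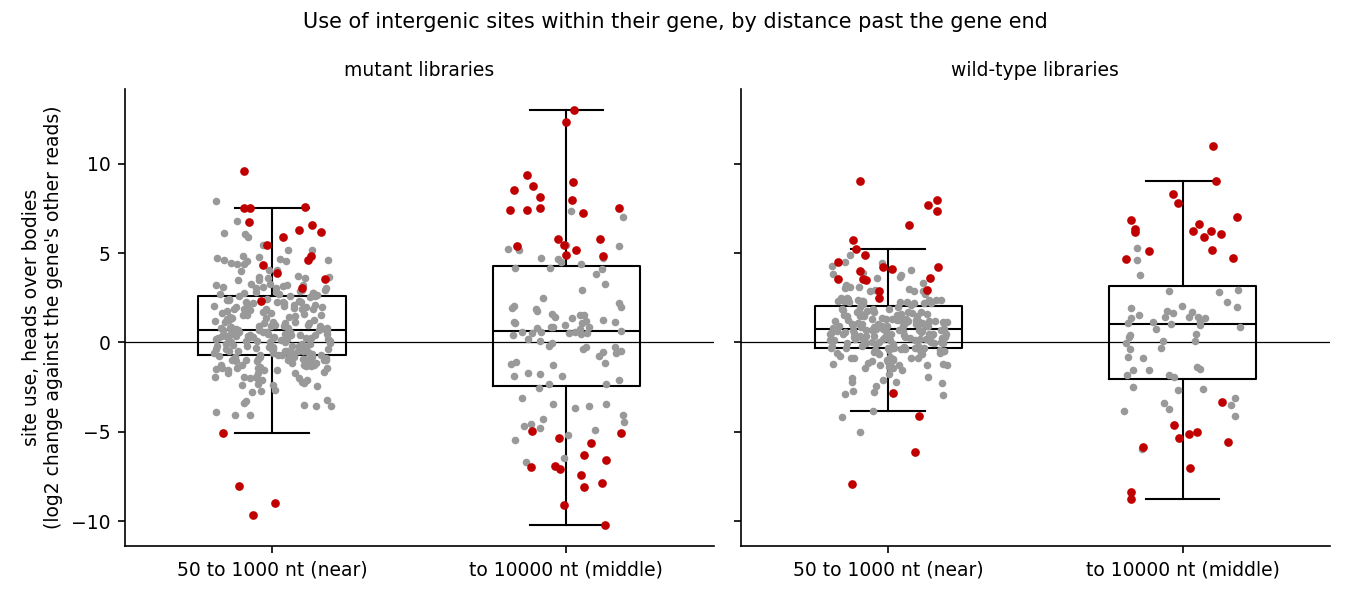
Log2 change in the use of intergenic sites within their gene, heads over bodies (vertical axis), for each member tested in mutant libraries (left panel) and wild-type libraries (right panel), by distance past the gene end. Red points passed an edgeR adjusted p of 0.05, boxes give the quartiles and median, and whiskers the most extreme value within 1.5 box heights; medians lie above 0 in every class, and the spread is wider in the middle class.

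Hrb27C had a site past its annotated end that was used more in heads. It encodes an hnRNP A/B RNA-binding protein, and its site at 2L 6932111 lies 54 nt past the end on the + strand. The site took 37.4%, 23.2%, 42.0% and 34.8% of the gene's reads in wild-type heads and 5.62%, 5.63%, 7.67% and 7.81% in wild-type bodies (log2 change in use 2.86, SE 0.55, edgeR adjusted p = 0.00351). Reads of the whole gene averaged 50.4 CPM in wild-type heads and 43.1 CPM in wild-type bodies, so the gene was near the same level while the end differed. The share was 39.9% and 35.5% in mutant heads and 1.08% and 4.88% in mutant bodies (4.36, edgeR adjusted p = 6.8e-04). Without the accession range as a term the wild-type adjusted p was 0.0850, and in early libraries alone it was 0.542 with a change of 2.82.

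numb, a cell fate determinant that inhibits Notch signalling, had the other large shift at a gene of similar level. Its site at 2L 9464269 lies 85 nt past the end on the + strand. It took 48.9%, 37.5%, 67.4% and 68.7% of the gene's reads in wild-type heads and 8.79%, 8.33%, 5.14% and 5.85% in wild-type bodies (log2 change in use 4.25, SE 0.62, edgeR adjusted p = 6.1e-04). Wild-type heads averaged 21.1 CPM and wild-type bodies 17.6 CPM of the whole gene, with the reads of the site itself included. Heads and bodies did not overlap in either range. In early libraries alone the change was 2.98 with an adjusted p of 0.608.

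Other sites used more in heads had fewer reads. The site 50 nt past Nse4 was used more in wild-type heads (log2 change in use 5.72, edgeR adjusted p = 0.0169). Its call was lost without wild-type body replicate 1, 3 or 4. It was also lost without the accession range as a term (adjusted p = 0.0850) and with positions under 5 pooled reads left out (0.0611). lilli, an AF4/FMR2 family gene, had 13, 15, 5 and 9 reads at 51 nt in wild-type heads and 7, 0, 0 and 0 in wild-type bodies, or 86.7%, 78.9%, 26.3% and 47.4% of the gene's reads in heads against 6.60%, 0%, 0% and 0% in bodies (log2 change in use 6.60, edgeR adjusted p = 4.7e-04). CG46025, at 62 nt, took 80.0% to 100% of the gene's reads in wild-type heads and 17.4% to 45.5% in wild-type bodies, while the gene averaged 2.56 CPM in heads and 10.6 CPM in bodies (4.11, edgeR adjusted p = 0.00273). With positions under 5 pooled reads left out the CG46025 change was 2.06 (adjusted p = 0.0868), and without the accession range as a term the call was lost too (adjusted p = 0.0620). Fgop2, at 161 nt, took 2.91% to 17.6% in wild-type heads and 0% to 1.77% in wild-type bodies (2.91, edgeR adjusted p = 0.0167). The Fgop2 call was lost without wild-type head replicate 1 or 4 or body replicate 3, and without the accession range as a term (adjusted p = 0.144).

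ATPsynGL, a gene for an ATP synthase subunit G-like protein, had 2 sites with a larger share in heads at a gene with fewer reads there. Its sites 2502 and 2555 nt past the end took 41.7% to 74.5% and 6.38% to 58.3% of the gene's reads in wild-type heads, and 1.52% to 6.22% and 0% to 5.39% in wild-type bodies. The log2 changes in use were 5.12 (edgeR adjusted p = 3.0e-04) and 4.67 (edgeR adjusted p = 0.00828). The gene averaged 9.92 CPM in wild-type heads and 53.1 CPM in wild-type bodies, with the reads of both sites included. The first site had 7.23, 14.2, 1.38 and 1.29 CPM in wild-type heads and 2.38, 1.76, 0.838 and 0.862 CPM in wild-type bodies, so its own level differed far less than its share. The call at the second site was lost without wild-type body replicate 3 or 4, and without the accession range as a term (adjusted p = 0.0730).

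Lower use in heads was named at 2 sites beyond 1000 nt. The site 6855 nt past mts, the catalytic subunit of protein phosphatase 2A, had no read in wild-type heads and 1, 5, 5 and 10 reads in wild-type bodies (edgeR adjusted p = 0.0427 for use). A gene on the opposite strand lies between, and CG14537 starts 21 nt downstream of the site. The mts call was lost without any 1 of head replicates 1, 3 and 4 or body replicates 3 and 4, without the accession range as a term (adjusted p = 0.110), with limma (0.0681) and with positions under 5 pooled reads left out (0.0667). The site 1063 nt past CG4577 had 0, 0, 1 and 0 reads in wild-type heads and 2, 1, 5 and 4 in wild-type bodies (edgeR adjusted p = 0.00118 for use), while the gene averaged 338 CPM in heads and 42.7 CPM in bodies. Both rest on few reads.

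Tissue differences in use also recurred in mutant libraries, again in a fit that shared its filter and spread with the later wild-type libraries. Of the 37 members used more in wild-type heads, 34 were tested in mutant libraries, 34 of 34 were used more in mutant heads and 20 passed. Of the 14 used less, 13 of 13 tested were used less and 5 passed. As for site reads, the recurrence over all called sites is not given beside these counts. Over all members, mutant heads against mutant bodies gave 37 higher and 18 lower of 405 tested (13.6%), against 19.0% of all 4316 sites tested (8.53% higher and 10.5% lower). Without mutant head replicate 1 the count was 35 and without mutant head replicate 2 it was 27.

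Genes known for long 3'UTRs in neurons were looked up as a list. The 6 listed on 2L were brat, Hrb27C, chinmo, ab, stai and Rbp9, and Hrb27C alone had a member. No member had any of the other 5 as its gene upstream. A long 3'UTR that is already annotated lies inside its gene and cannot be a member. The lookup therefore does not show whether these genes had longer 3'UTRs in heads. Of 25 neuronal genes, 6 had members, 11 sites with 2059 reads in all, of which nAChRalpha5 held 1498. Of their 2 sites tested in wild-type site reads, 1 was higher and 0 lower, and of 3 tested in use 0 were higher and 1 lower (ninaC, 4110 nt past the end, 23 reads). Of 29 transcription factor genes 4 had 1 member each, and of 10 RNA-binding protein genes 3 did.

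Among the transcription factors, salr, a zinc finger gene of the spalt family, had a site 63 nt past the end. It had 43 and 29 reads in mutant heads, 16 and 14 in mutant bodies, 0, 1, 28 and 17 in wild-type heads and 0, 0, 4 and 5 in wild-type bodies. Its use was higher in wild-type heads (log2 change 7.95, edgeR adjusted p = 5.9e-04), and 1 of its 55 wild-type reads was early. Between mutant heads and bodies the log2 change was 7.57 in use but 0.69 in site reads, where it was not called. There the higher use thus went mostly with fewer other reads of the gene in heads. Sites 408 nt past slp2 and 120 nt past al, both transcription factor genes, had 36 and 11 reads and none in wild-type bodies.

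Ggamma30A, the gamma subunit of a photoreceptor G protein, had 5 members between 11309 and 23175 nt past its end on the + strand. The site at 14028 nt had 17 and 4 reads in mutant heads, 0 and 0 in mutant bodies, 24, 0, 43 and 63 in wild-type heads and 2, 0, 0 and 0 in wild-type bodies. The site at 23175 nt had 68 and 19 reads in mutant heads, 0 and 0 in mutant bodies, 27, 0, 1 and 6 in wild-type heads and none in wild-type bodies. Both were nearly confined to heads, but wild-type head replicate 2 had no read at either. The site at 13964 nt had 5 and 5 reads in mutant heads, 11 and 10 in mutant bodies, 45, 3, 15 and 36 in wild-type heads and 18, 2, 15 and 15 in wild-type bodies, so heads and bodies overlapped there. A gene on the opposite strand, lncRNA:CR42844, lies between Ggamma30A's end and the sites at 13964 and 14028 nt.

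Mutant and wild type were compared within the 8 later libraries (2 per group). In heads 185 members were tested in site reads, of which 5 were higher and 6 lower in mutant heads (5.95% called), against 3.18% of all 21301 sites tested (1.23% higher and 1.95% lower). In bodies 18 were higher and 8 lower in mutant bodies (14.1%), against 5.1% of all sites (2.59% higher and 2.52% lower). A member that passed the filter because it was high in 1 group had to differ, so these counts and medians describe those tested. The median log2 change was 0 over members in heads and 0.45 in bodies, against 0 and 0.09 over all sites. All called members had groups that did not overlap, but 3 of the 11 in heads and 9 of the 26 in bodies had fewer than 50 pooled reads. With 2 libraries per group the lack of overlap says little, and it is not given for all called sites. By class, bodies gave 13 calls of 116 near members tested, 7 of 36 middle members and 6 of 33 far members, and the last 6 were all higher in mutant bodies.

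These counts depended on single libraries. In heads the count was 2 without wild-type head replicate 3 or 4 or mutant head replicate 2, and 3 without mutant head replicate 1. In bodies, leaving out wild-type body replicate 3 gave 0 calls, wild-type body replicate 4 gave 1, mutant body replicate 1 gave 15 and mutant body replicate 2 gave 76. Over all site levels mutant body replicate 2 correlated 0.888 with mutant body replicate 1 and 0.912 with wild-type body replicate 4, while the mutant heads correlated 0.978 with each other. The summed muscle markers also stood lower in mutant bodies, as given above, and their part in the body result was not tested.

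The clearest genotype difference was at numb. Its site had 1 and 5 reads in mutant heads against 180 and 149 in wild-type heads of the later range, or 0.116 and 0.571 CPM against 20.7 and 19.2 CPM (log2 change -5.87, SE 0.62, edgeR adjusted p = 0.00535). The call in reads held without each of the 4 head libraries in turn, at adjusted p of 0.0107 to 0.0289. The early wild-type heads had 6.16 and 4.88 CPM, also above both mutant heads. The site took 0.775% and 3.70% of the gene's reads in mutant heads against 67.4% and 68.7% in wild-type heads (log2 change in use -6.50, edgeR adjusted p = 4.2e-04). The call in use was lost without wild-type head replicate 3 (adjusted p = 0.0748) or 4 (0.0596). Reads of the whole gene averaged 15.2 CPM in mutant heads and 29.4 CPM in later wild-type heads.

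Bodies showed the same at numb at a lower level. Mutant bodies had 0 and 0 reads and wild-type bodies of the later range 9 and 10 reads, at least 6.12-fold lower (edgeR adjusted p = 0.0367 in reads and 0.0246 in use). The body call in reads was lost without wild-type body replicate 3 or 4 or mutant body replicate 1, and that in use without wild-type body replicate 3 (adjusted p = 0.242) or 4 (0.280). The numb site was thus used most in wild-type heads and close to unused in mutant flies of both tissues.

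Nse4, a subunit of the Smc5/6 complex, and jhamt, the juvenile hormone acid methyltransferase, went the other way in both tissues. The Nse4 site, 50 nt past the end at 2L 10441097 (+ strand), had 9.25 and 8.90 CPM in mutant heads against 0.345 and 0.387 CPM in later wild-type heads (log2 change 4.52, SE 0.59, edgeR adjusted p = 0.00757). It had 3.75 and 4.16 CPM in mutant bodies against 0.140 and 0 CPM in later wild-type bodies (5.75, SE 0.78, edgeR adjusted p = 0.0112). It took 92.0% and 95.1% of the gene's reads in mutant heads against 20% and 23.1% in wild-type heads, and 91.7% and 58.7% in mutant bodies against 2.94% and 0% in wild-type bodies. Wild-type head replicate 2, an early library, had 7.32 CPM, somewhat below both mutant heads, and a share of 94.7%, between them.

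The jhamt site, 59 nt past the end at 2L 16367098 (+ strand), had 4.63 and 6.73 CPM in mutant heads against 0.115 and 0 CPM in later wild-type heads (log2 change 6.14, SE 1.12, edgeR adjusted p = 0.0253). It had 15.0 and 3.60 CPM in mutant bodies against 0.140 and 0.492 CPM in later wild-type bodies (4.84, SE 0.90, edgeR adjusted p = 0.0247). Its share was 57.1% and 59.0% in mutant heads against 1.61% and 0% in wild-type heads, and 83.8% and 72.7% in mutant bodies against 0.926% and 1.5% in wild-type bodies. Wild-type head replicate 2 again stood apart, with 3.26 CPM and a share of 36.4%. The calls in reads at Nse4 and jhamt were lost in both tissues without either wild-type library of the pair, and that at jhamt in heads also without mutant head replicate 2. With all 12 libraries and the replicate number as a term both calls in heads were lost (log2 change 1.54, adjusted p = 0.201 at Nse4, and 2.62, adjusted p = 0.111 at jhamt), and both in bodies held (4.72 and 3.78, adjusted p = 0.00963 and 0.0489).

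Gpdh1, the glycerol-3-phosphate dehydrogenase of the cytosol, lacked reads at a minor site in the mutant. The site, 115 nt past the end, had 0 reads in all 4 mutant libraries, 31 and 23 in later wild-type heads and 52 and 26 in later wild-type bodies. It was at least 19.0-fold lower in mutant heads and at least 25.7-fold lower in mutant bodies (edgeR adjusted p = 0.0207 and 0.0182). The share at stake was small: 0.395% and 0.331% of the gene's reads in later wild-type heads and 0.336% and 0.248% in later wild-type bodies. The call in heads was lost without either mutant head and with all 12 libraries and the replicate number as a term (adjusted p = 0.0585), and that in bodies without either wild-type body library.

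The site 5877 nt past the gene FBgn0284251 also had 0 reads in all mutant libraries, against 12 and 16 reads in later wild-type heads and 8 and 18 in later wild-type bodies (edgeR adjusted p = 0.0432 in heads and 0.0454 in bodies). Rab14, a small GTPase gene, had 0 reads at its site 320 nt past the end in all mutant libraries, against 21 and 19 in later wild-type heads and 10 and 6 in later wild-type bodies; it was called in heads (at least 14.1-fold lower, edgeR adjusted p = 0.0209). The site 27187 nt past CG15140 had 0 reads in mutant heads against 22 and 17 in later wild-type heads (at least 13.7-fold lower, edgeR adjusted p = 0.0190). Early wild-type heads had no read at the FBgn0284251 and Rab14 sites and 3 and 0 reads at the CG15140 site.

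The other sites higher in mutant heads were those 461 nt past CG17928, 28921 nt past CG3036 and 3121 nt past lncRNA:CR44608. CG17928 had 4.86 and 5.82 CPM in mutant heads against 0.575 and 0.646 CPM in later wild-type heads (log2 change 3.03, edgeR adjusted p = 0.0214). CG3036 had 17 and 14 reads against 1 and 1 (3.65, edgeR adjusted p = 0.0294), and lncRNA:CR44608 had 11 and 12 against 1 and 1 (3.22, edgeR adjusted p = 0.0427). Each of these 3, and each of Rab14, FBgn0284251 and CG15140, was no longer called in heads when any 1 of the 4 head libraries was left out. With all 12 libraries and the replicate number as a term CG17928 was still called, and the other 5 were not. In that fit the log2 change was 1.86 at CG3036 (adjusted p = 0.134), 2.01 at lncRNA:CR44608 (0.177), -3.86 at Rab14 (0.193) and -4.11 at CG15140 (0.163), and the adjusted p at FBgn0284251 was 0.271. DESeq2 did not call CG3036 (adjusted p = 0.106) or lncRNA:CR44608 (0.275), and without the low-count filter lncRNA:CR44608 was not called (0.101).

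In bodies the sites higher in the mutant included several far from any gene upstream. The site 10234 nt past CG18131 had 82 and 117 reads in mutant bodies and 0 and 0 in later wild-type bodies, at least 69.1-fold higher (edgeR adjusted p = 0.0129). Early wild-type bodies had none either, and mutant heads had 0 and 3. The site 19290 nt past lncRNA:CR44414, a single position, had 48 and 84 reads in mutant bodies against 0 and 1 in later wild-type bodies (log2 change 6.90, edgeR adjusted p = 0.0145). The site 53 nt past lncRNA:CR44823 had 100 and 39 reads in mutant bodies against 4 and 6 in later wild-type bodies (4.08, edgeR adjusted p = 0.0415). All 3 calls were lost without wild-type body replicate 3 or 4, and that of lncRNA:CR44823 also without mutant body replicate 1.

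Sites lower in mutant bodies were those of CG14931, CG6675 and CG10839, besides numb and Gpdh1. CG14931, 114 nt past the end, had 0 reads in both mutant bodies against 78 and 44 in later wild-type bodies, at least 40.1-fold lower (edgeR adjusted p = 0.0135). The gene itself averaged 7.68 CPM in mutant bodies, so its reads lay elsewhere. CG6675, 176 nt past the end, had 1.71 and 1.91 CPM in mutant bodies against 11.6 and 6.40 CPM in later wild-type bodies (log2 change -2.15, edgeR adjusted p = 0.0361). CG10839, a single position 1835 nt past the end, had 2 and 3 reads in mutant bodies against 21 and 20 in later wild-type bodies (-2.81, edgeR adjusted p = 0.0369). It had no early read, and with all 12 libraries and the replicate number as a term its change was 3.74 (adjusted p = 0.140), the opposite direction. In that fit CG6675 was not called either (-1.30, adjusted p = 0.133), and DESeq2 did not call CG10839. The CG14931 call was lost without wild-type body replicate 3, the CG6675 call without wild-type body replicate 3 or 4, and the CG10839 call without wild-type body replicate 3 or 4 or mutant body replicate 1.

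**Figure D5:**
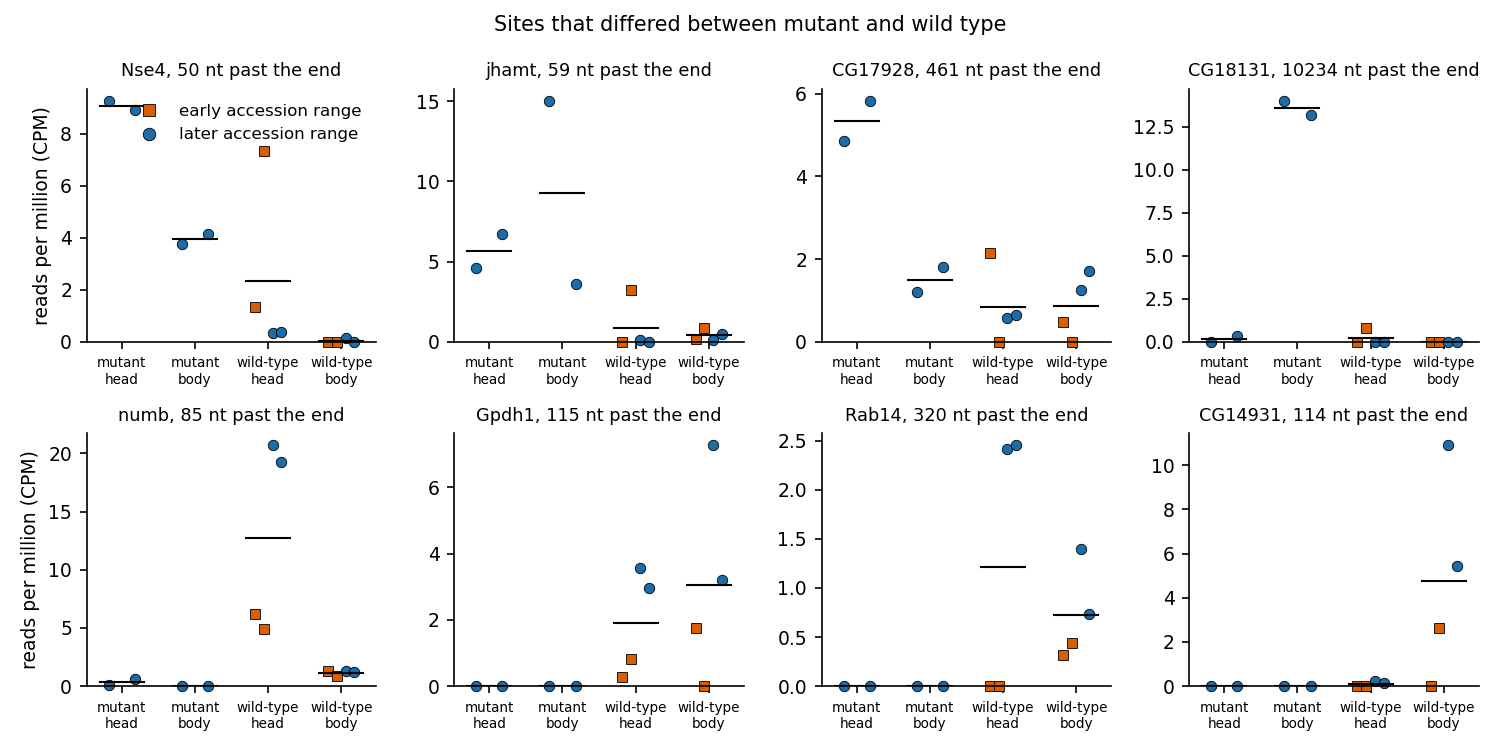
CPM (vertical axes, linear, starting at 0) at 8 intergenic sites in each library, by group, with group means over all libraries shown as bars and colours for the accession range. The upper row shows sites higher and the lower row sites lower in mutant flies of at least 1 tissue; tests used the later libraries, and the early wild-type head at 7.32 CPM for Nse4 lies near the mutant heads.

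In site use 405 members were tested between genotypes. In heads 3 were used more and 6 less in the mutant (2.22% called), against 1.88% of all 4316 sites (0.788% higher and 1.09% lower), and in bodies 6 more and 5 less (2.72%), against 1.95% (0.88% higher and 1.07% lower). Both shares were close to the background. Cyt-c-p, a cytochrome c gene, was called in both tissues besides Nse4, jhamt, numb and Gpdh1. Its site 113 nt past the end had 2.24% and 7.14% of the gene's reads in mutant heads against 0.0812% and 0% in later wild-type heads, and 16.7% and 2.20% in mutant bodies against 0.0808% and 0% in later wild-type bodies (log2 change in use 6.22 and 6.99, edgeR adjusted p = 0.0293 and 0.00699). Early wild-type replicate 2 had 3.85% in heads and 15.4% in bodies, within the range of the mutant. With all 12 libraries and the replicate number as a term the changes were 0.50 (adjusted p = 0.901) and 0.67 (adjusted p = 0.762).

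The count of use calls in heads was 0 without wild-type head replicate 3 or 4 and 1 without either mutant head. In bodies, leaving out wild-type body replicate 3 gave 1, wild-type body replicate 4 gave 0, mutant body replicate 1 gave 25 and mutant body replicate 2 gave 65. The other named use calls rested on few reads. The ATPsynGL site at 2555 nt had 0 reads in mutant heads against 9 and 14 in later wild-type heads, while its neighbour at 2502 nt had 12 and 10 against 12 and 10. The site 1641 nt past CG8419, a single position, had 10 and 9 reads in mutant bodies and none in any other library. Sites past lncRNA:CR44490 (higher), CG17648 and lncRNA:CR44491 (both lower) were called in mutant bodies with 66 pooled reads or fewer.

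The comparison of mutant with wild type used different libraries in heads and bodies, so the calls can be set beside each other. The head and body comparisons shared the same strains and were fitted together on the later libraries, so their calls are not independent. The same overlap over all called sites is not given, so the counts below describe the members alone. In site reads, 2 sites were higher in both (Nse4 and jhamt), 40% of the 5 in heads and 11.1% of the 18 in bodies. Sites lower in both numbered 3 (numb, Gpdh1 and FBgn0284251), 50% of the 6 in heads and 37.5% of the 8 in bodies. In site use, 3 were higher in both (Nse4, jhamt and Cyt-c-p), all 3 of those in heads and 50% of the 6 in bodies, and 2 were lower in both (numb and Gpdh1), 33.3% of the 6 in heads and 40% of the 5 in bodies.

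Whether the genotype effect differed between heads and bodies was tested as an interaction. No member was called with edgeR in site reads (0 of 185) or in site use (0 of 405), while 12 had an unadjusted p under 0.05 in each. Over all sites 0.00469% were called in reads and 0.0% in use. DESeq2 gave 0 calls in reads and limma 0 in use. Without mutant body replicate 2, edgeR called 10 members in reads and 9 in use. The share over all sites in that setting is not given. No tissue-specific genotype effect at an intergenic site was therefore detectable at this depth with all libraries, which does not show that the effects were alike.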

How the data were processed

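The deposited files hold raw counts of reads per cleavage position, with chromosome and strand and no gene names; the authors aligned reads with Bowtie2 to BDGP5, per the submitters' processing notes. Tail filters, the counting step and how repeats were handled are stated neither in labels nor in headers. Genes came from the Ensembl release 115 annotation of BDGP6, used at identical coordinates on 2L up to 22258266. There 61.7% of 3907 positions with at least 200 reads lay within 10 nt of an annotated end, and 0.256% did so after a shift of 10000 nt. Coordinates are those of the files. Transposable elements counted as genes when intergenic sites were chosen, and not as upstream genes.

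Positions within 24 nt were joined and placed at the most used position. edgeR 4.0.16 in R 4.3.3 was fitted to all genomic sites of at least 10 reads with TMM scaling, filterByExpr and Benjamini-Hochberg adjustment. Site use was tested on paired columns, site and other reads of the gene, with a term per library. Wild-type tissues used 8 libraries with the accession range as a term, and other contrasts the 8 later libraries. Alternatives used DESeq2 1.42.0 and limma 3.58.1 on log2 ratios with 0.5 reads added; pandas 2.3.3, numpy 2.4.6 and scipy 1.17.1 in Python 3.11.15 were also used. On simulated data the wild-type fit recovered 84% of 4-fold and 89% of 16-fold changes in reads and 29% and 73% in use. Mutant heads against wild-type heads gave 42% and 86% in reads and 7% and 58% in use. The simulated counts had the same spread at every site and no difference between accession ranges. Changed sites were drawn from all sites that passed the filters, so recovery at members was not measured. PCR reads carry no molecular identifiers here, so counts and floors cover counting error only.

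The members and gene lists were chosen with earlier results of these data known. The rule for named sites took the 5 with the most reads in each class, those with the most reads among calls whose groups do not overlap (up to 6 per direction between wild-type tissues, 3 beyond 10000 nt, and 5 between genotypes), and sites of listed neural extension genes. The sites of salr, ninaC, slp2 and al and the Ggamma30A site at 23175 nt were named after their values were seen. Replicate numbers do not pair samples by the labels. The correlation of same-numbered samples' deviations was 0.670 in the early range and 0.0929 in the later, below the 0.1 asked of every pair.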

Additional observations from a re-analysis of the deposited data

Results flagged for a closer look

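Within the wild-type groups of 4, 98 sets of values (shares of 2L reads by class, and CPM of the named sites) were examined for 1 sample far from the other 3, by Dixon's test for 4 samples. Of these, 19 had such a sample; chance gives about 1 in 20. Many of these sets were 0 in most libraries, where 1 read is enough.

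Some stood out at a clear level. At Nse4 wild-type head replicate 2 had 7.32 CPM, and at jhamt the same library had 3.26 CPM, below both mutant heads in each case but far above the other wild-type heads. At CG15283 wild-type body replicate 1 had 21.7 CPM, and at CG46025 the same library had 6.67 CPM. At the ATPsynGL site 2555 nt past the end wild-type head replicate 1 had 6.97 CPM. At Cyt-c-p wild-type body replicate 2 had 1.76 CPM. In the share of 2L reads in the middle class the same library, wild-type body replicate 2, had 0.126%. These libraries all belong to the early range.

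Others were single values near 0. In wild-type heads these were 1.07 CPM at CG7631, 0.814 CPM at CG18131, 0.460 CPM at lncRNA:CR44491, 0.407 CPM at CR43734 and 0.115 CPM at each of CG15631, CG4577 and CG17648. In wild-type bodies these were 1.11 CPM at lilli, 0.317 CPM at CarT and at the Ggamma30A site 14028 nt past the end, and 0.140 CPM at Nse4. At numb the lowest wild-type body, replicate 2, had 0.880 CPM.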

How the results depend on the processing

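In wild-type site reads (22 calls of members), the 12 named sites tested kept their direction, and 11 kept their call without each replicate (CG9497 lost it without 3 of 8); without the low-count filter there were 280 calls (63 higher, 217 lower), in later libraries alone 71, and 19 to 37 without a replicate. With replicate number as a block it was 22, and for site use 71 against 51; same-numbered samples share only a number, and 6 of 8 wild-type libraries correlated best with their own number. Wild-type site use fell to 10 without the accession range, 32 without positions under 5 reads and 0 in early libraries alone, reached 96 with limma, and was 17 to 53 without a replicate. In mutant heads the 11 calls in reads and 9 in use were each 51 with all 12 libraries and the replicate block, 15 in use with limma, and 2 to 3 in reads and 0 to 1 in use without a replicate. In mutant bodies the 26 and 11 calls were 83 and 76 with all 12 libraries and the replicate block, 40 in reads without the filter, 22 in use with limma, and 0 to 76 and 0 to 65 without a replicate. The interaction gave 0 to 10 and 0 to 9 without a replicate. Mutant heads against mutant bodies gave 255 in reads without the filter, 125 in use with limma, and 100 to 144 and 27 to 72 without a replicate. The CG10839 site reversed to 3.74 in mutant bodies with all 12 libraries. The cause of these shifts was not tested. The counts above are of members alone, and the share over all sites is not given for these settings. At least 50 reads left 122, 34 and 22 sites in the 3 classes; without positions under 5 reads 395, 171 and 145 remained. Within-range fits, the count without sites lacking early reads and that last count of sites were chosen after seeing the data. Alternatives that need genome sequence (poly(A) signal hexamers, A-rich stretches) were not run. With 2 libraries per mutant group, site use recovered few 4-fold changes on simulated data.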
